A study of Sus scrofa with 6 samples.

Results

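DKK1 and DKK3 encode Dickkopf proteins, a family of secreted glycoproteins named for inhibitors of Wnt signalling. The genes were taken by their symbols: every probe set whose only symbol in the platform annotation is DKK1 or DKK3 was used. Each gene had 1 probe set, so the account covers 2 of the 23999 probe sets and 2 of the 6567 named genes on the array. Both genes were chosen with their values on these arrays known, so their levels and differences are given as a description and carry no test.

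Wnt proteins bind Frizzled receptors together with the co-receptors LRP5 and LRP6, which leads to stabilisation of beta-catenin and transcription through TCF and LEF factors. DKK1 binds LRP5 and LRP6 and thereby blocks this canonical branch, and the Kremen proteins are further receptors of Dickkopf proteins. DKK3 is the most divergent member of the family, and its effect on Wnt signalling differs between cell types. In the human uterus DKK1 is known as a gene of the endometrial stroma that progesterone induces.

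The samples were ovary, and uterine tissue labelled myometrium, of sows at a non-pregnant, an early pregnant and a late pregnant stage. No genotype, breed, age or day of gestation was given, and no treatment was applied. A single array represented each tissue at each stage, 6 in all, although the design counts 9 pigs with 3 in each stage, and the sources used here do not say whether an array held RNA of 1 pig or a pool. The values are MAS5 signals, linear intensities that the authors scaled to a common level on each array. A floor of 81.7, the 40th percentile of all signals, was set under the values before log2 was taken, and a ratio with the dimmer array under the floor is written as "at least".

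Each array had between 57.4% and 61.6% of its probe sets above the floor. The label myometrium names the smooth muscle of the uterine wall, but epithelial markers were high on these arrays. All 9 uterine epithelium markers were above the floor on the 3 arrays labelled myometrium, with summed signals of 58287 to 82804, against 1292 to 1539.5 on the ovary arrays. The 7 smooth muscle markers that could be named summed to 10564 to 22147.5 on the arrays labelled myometrium and 24919.9 to 37997 on the ovary arrays, with 6, 6 and 7 of them above the floor on the former in order of stage. The arrays labelled myometrium are called uterine arrays below. The ovary label was matched by its markers, with all 14 luteal and granulosa markers above the floor on each ovary array. On the uterine arrays 6, 10 and 7 of them were above the floor in order of stage. Their summed signals were 105648 to 124830.0 in ovary and 2057.5 to 15071 in uterus. The ratio of 3' to 5' GAPDH signal, a measure of RNA integrity, read 2.33 for non-pregnant, 1.99 for early pregnant and 1.51 for late pregnant ovary. The uterine ratios were 1.52, 1.70 and 1.53 at these stages. Hybridisation controls lay 0.50 above their mean over the arrays (log2) on the non-pregnant ovary array, against -0.29 to 0.069 on the others. The part of these differences in the results was not tested.

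DKK1 was read above the floor on the uterine arrays only, and it stood out on 1 of them. Its signal was 127.2 on the non-pregnant, 4119.8 on the early pregnant and 363.7 on the late pregnant uterine array. On the ovary arrays it was 25.4 at the non-pregnant stage and 20.0 at both pregnant stages. All 3 ovary signals lay under the floor, so they have no order among themselves, and the 3 uterine signals all lay above them, an arrangement shared by 11.8% of the 17196 probe sets that exceeded the floor somewhere.

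DKK3 showed another arrangement, with high signals on every ovary array and a lower signal on every uterine array. It read 6819.7, 6660.7 and 7990.7 on the non-pregnant, early pregnant and late pregnant ovary arrays. On the uterine arrays it read 757.8, 575.8 and 969.7 in the same order. The tissues did not overlap, and the lowest ovary signal was 6.87-fold above the highest uterine signal. Of the 17196 probe sets that exceeded the floor somewhere, 13.5% had all ovary signals above all uterine ones, and 47 (0.273%) had a gap at least as wide as that of DKK3.

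**Figure D1:**
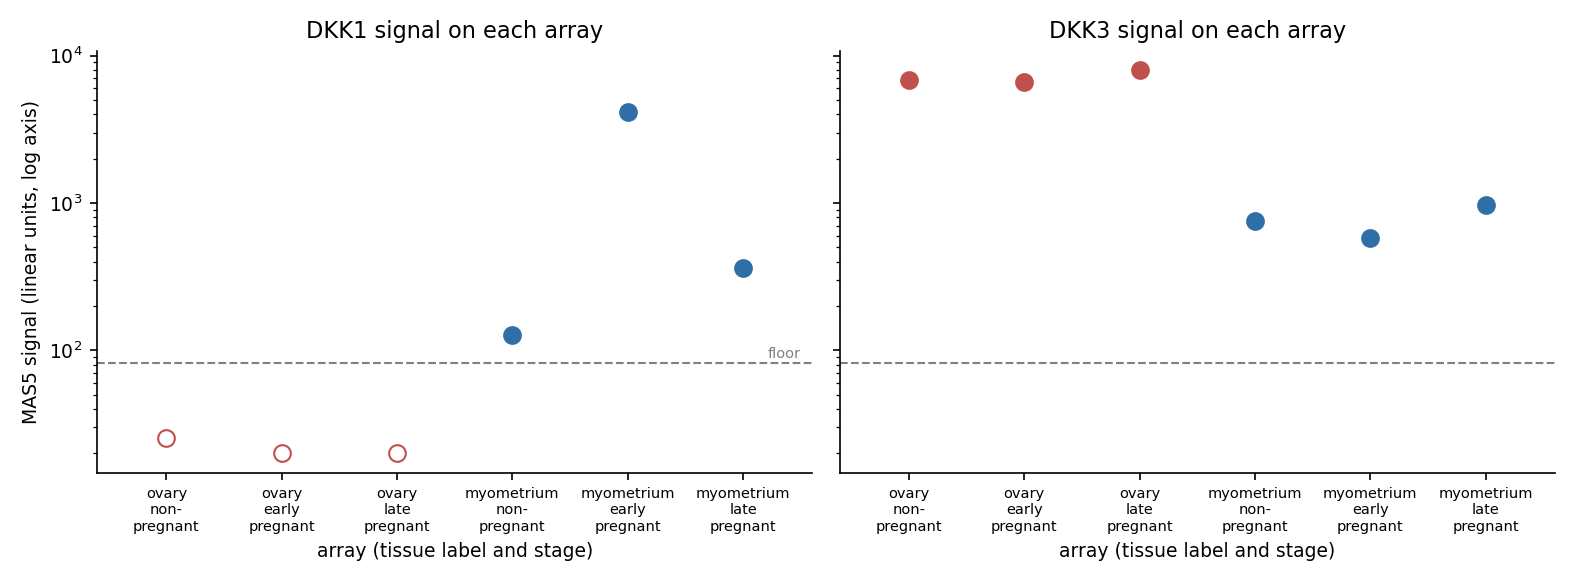
MAS5 signal (linear units on a log axis) of DKK1 on the left and DKK3 on the right, with 1 point for each array, ovary in red and tissue labelled myometrium in blue; the dashed line is the floor of 81.7 and open points lie under it. DKK1 reaches 4119.8 on the early pregnant myometrium array and lies under the floor on all ovary arrays, whereas DKK3 lies between 6660.7 and 7990.7 in ovary and between 575.8 and 969.7 in tissue labelled myometrium.

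The stages within a tissue were compared to see how a gene differed with pregnancy. Each side is 1 array, so no spread between animals is available and no comparison of stages has a test. In bulk tissue, fewer cells of a type and less RNA per cell cannot be told apart.

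Among the uterine arrays, DKK1 was 32.4-fold higher on the early pregnant than on the non-pregnant array, a log2 ratio of 5.02. This placed it 13th from the top among the 13401 probe sets above the floor on both arrays. A 2-fold or larger ratio in this direction was found for 8.76% of the 15836 probe sets measured in this comparison, meaning above the floor on one array or both. Between the pregnant arrays, DKK1 was 11.3-fold lower on the late than on the early pregnant array, a log2 ratio of -3.50 and 15th from the bottom of 13394, where 5.62% of probe sets were 2-fold or more lower. The late pregnant array remained 2.86-fold above the non-pregnant one, with 10.9% of probe sets at 2-fold or more in that direction.

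The order of DKK1 on the arrays was thus early pregnant uterus, late pregnant uterus, non-pregnant uterus and then the ovary arrays. The early pregnant uterine signal exceeded that on the next array by 11.3-fold. A probe set that was 2-fold or more above each other array on the early pregnant uterine array was found 187 times among 17196 (1.09%), and 12 (0.0698%), DKK1 included, had a gap at least as wide. The lowest uterine signal, that of the non-pregnant stage, was at least 1.56-fold above the ovary arrays and lies close to the floor.

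DKK3 varied little among the ovary arrays. The early pregnant ovary read 1.02-fold below and the late pregnant ovary 1.17-fold above the non-pregnant one, with log2 ratios of -0.034 and 0.23. Between early and late pregnancy the ovary signals differed by 1.20-fold, and 49.1% of the 13340 probe sets above the floor on both arrays differed by at least that much.

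On the uterine arrays, DKK3 was 1.32-fold lower in early pregnancy and 1.28-fold higher in late pregnancy than on the non-pregnant array. From early to late pregnancy it was 1.68-fold higher (log2 ratio 0.75), and 19.0% of 13394 probe sets had a ratio of at least this size in either direction. The early pregnant uterine array, on which DKK1 was highest, was the one on which DKK3 was lowest. No stage ratio of DKK3 reached 2-fold in either tissue.

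**Figure D2:**
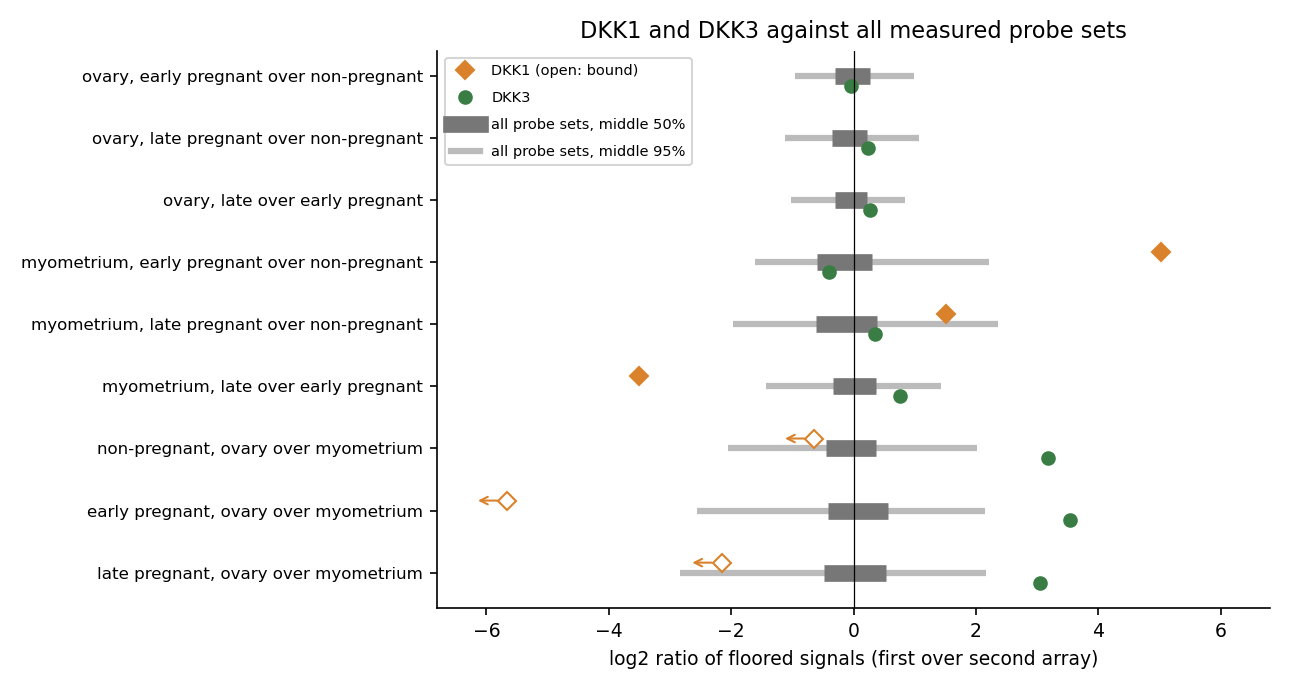
Log2 ratio of floored signals for each of 9 pairs of arrays, with DKK1 as orange diamonds and DKK3 as green circles; thick and thin grey bars span the middle 50% and 95% of all measured probe sets, and an open diamond with an arrow is a bound. DKK1 lies at 5.02 and -3.50 in the uterine comparisons that hold the early pregnant array, outside the thin bars, and DKK3 lies outside them only between tissues.

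Between the tissues, DKK3 was 9.00-fold higher on the non-pregnant ovary array, 11.6-fold higher in early and 8.24-fold higher in late pregnancy. The corresponding shares of probe sets 2-fold or more higher in ovary were 8.74%, 12.4% and 12.0%. The mean log2 difference was 3.25 ± 0.25 (SD over 3 stages, 1 array per tissue each). DKK1 lay the other way, at least 50.4-fold lower in ovary in early pregnancy, at least 4.45-fold in late pregnancy and at least 1.56-fold in the non-pregnant pair. In early and late pregnancy 10.6% and 12.6% of probe sets were 2-fold or more lower in ovary. The mean log2 difference of DKK1 was -2.82 ± 2.57 with ovary at the floor, and without the early pregnant arrays it was -1.40.

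Markers of other cells differed between the arrays as well. Of the trophoblast list, chosen for cells of the conceptus, 5 of 10 genes could be named. These 5 genes do not mark such cells alone, since HSD17B1 and GATA2 were above the floor on every ovary array, and GATA2 in non-pregnant uterus. On the uterine arrays their summed signal was 1099.4, 5323.2 and 4207.7 in order of stage, and on the ovary arrays 5009.7 to 12285, of which HSD17B1, also a gene of ovarian cells, made up most. All 5 were above the floor on the early pregnant uterine array, 1 on the non-pregnant and 3 on the late pregnant one. CYP19A1, an aromatase, read 35.6, 595.9 and 30.3 on the uterine arrays in order of stage and was under the floor on every other array than the early pregnant one. GATA3, a transcription factor of trophoblast and of T cells, read 59.2, 3167.8 and 2777.6. Of the 5 genes, 4 were highest on the early pregnant array among the uterine ones. GATA2 was lowest there, at 886.8, 810.7 and 1243.2 in order of stage, and was the gene above the floor on the non-pregnant array. The part of these cells in the DKK1 signal was not tested.

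Of the endometrial stroma list, 4 of 7 genes could be named, and their summed signal on the uterine arrays was 831.5, 1121.7 and 1370.8 in order of stage. PRL and IGFBP1, made by decidual stroma in the human uterus, were under the floor on all 6 arrays. Stroma and fibroblast markers, 6 of 8, summed to 46404, 62209 and 64859 on the uterine arrays. Both sums were highest on the late pregnant array, but their members differed. HOXD10 of the first list, and DCN and COL3A1 of the second, were highest on the early pregnant array among the uterine ones. FOXO1 of the first list, brighter than HOXD10, was highest on the late pregnant array, at 514.8, 672.1 and 999.6 in order of stage. HOXD10 read 279.8, 337.9 and 236.0. THY1 and VIM of the second list were highest on the late pregnant array, and LUM and COL1A2 on the non-pregnant one. THY1 had the widest range, at 1182.6, 15460.0 and 21301.5 in order of stage, against 15608.4, 12122.3 and 8086.7 for LUM. The part of stroma in the DKK1 signal was not tested.

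Beside DKK3, 13 of 14 luteal and granulosa markers had all ovary signals above all uterine ones, and INHBA did not. Of the 17196 probe sets above the floor somewhere, 13.5% had this arrangement. It was not confined to markers of ovarian cells. Of the smooth muscle list 4 of 7 had it (ACTA2, TAGLN, CNN1 and MYLK), as had VIM, FOXO1, CD163 and HSD17B1 of other lists. The luteal and granulosa list summed to between 105648 and 124830.0 in ovary. On the uterine arrays it summed to 2057.5, 12642 and 15071 in order of stage. Of the theca list, INSL3 and CYP17A1 could be named, and they summed to between 3870.0 and 4690.4 in ovary and 32.8 to 270.4 on the uterine arrays. INSL3, the insulin-like peptide of theca and luteal cells, was under the floor on all 3 uterine arrays. CYP17A1, a steroid hydroxylase, read 178.9, 138.0 and 147.3 in ovary and 6.4, 218.1 and 92.4 in uterus, so the tissues overlapped. STAR, which brings cholesterol into mitochondria, read 13.2, 5573.0 and 6906.8 in uterus. WT1, the only named marker of ovarian surface cells, read 189.6, 259.8 and 275.6 in ovary and 192.4, 64.1 and 31.7 in uterus. The part of these cells in the DKK3 difference was not tested.

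The rest of the Wnt pathway was described through 7 lists of 103 genes, of which 26 had a named probe set and 22 exceeded the floor on 2 or more arrays and could be tested. The tissues were compared in limma with tissue and stage as additive terms, a fit that has 2 residual degrees of freedom, so that its p-values measure agreement over these arrays and not over pigs. Of the 22 genes, 3 were higher on the uterine arrays, 0 were higher in ovary and 19 missed the threshold (limma, adjusted p under 0.05, and 8 of 22 at an unadjusted p under 0.05, as were 21.9% of all probe sets tested). Over all 15882 probe sets tested, 2.23% were called higher in uterus and 2.84% in ovary. Over the 5673 named genes tested, each at its brightest probe set as for the Wnt genes, the shares were 2.52% and 2.94%. The median log2 difference, ovary minus uterus, was -0.14 for the 22 genes and 0.013 for all probe sets tested.

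The 3 genes were MMP7, LEF1 and APCDD1. MMP7, a matrix protease that is a Wnt target and a product of glandular epithelium, read 1829.1, 987.5 and 722.5 on the uterine arrays in order of stage and no more than 8.3 in ovary. It was at least 22.4-fold higher in uterus at the non-pregnant, 12.1-fold at the early and 8.84-fold at the late pregnant stage. With ovary raised to the floor its log2 difference was -3.74 ± 0.37 (SE, limma adjusted p = 0.0116). MMP7 entered the fit through the uterine arrays alone, and its ovary values there are the floor itself. The SE and p-value therefore hold no spread of ovary signals, and the call of MMP7 is no support beyond its signals. LEF1, a transcription factor through which beta-catenin acts, read 534.2, 1184.6 and 515.9 in uterus and 153.4, 103.6 and 63.8 in ovary. Its log2 difference was -2.66 ± 0.41 (SE, limma adjusted p = 0.0273), with the late pregnant ovary under the floor. The early pregnant uterine array was highest for LEF1, as it was for DKK1.

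APCDD1, a membrane protein that inhibits Wnt signalling upstream of beta-catenin, was also higher in uterus in all 3 pairs of arrays. It read 1907.5, 704.9 and 1255.8 in uterus and 193.6, 189.1 and 242.1 in ovary, a log2 difference of -2.53 ± 0.36 (SE, limma adjusted p = 0.0224). A further APCDD1 probe set differed by -2.51. These 3 genes were higher on the arrays that carried the epithelial markers described above, and the part of epithelium in them was not tested. Leaving out the non-pregnant or the late pregnant arrays kept the call of MMP7 alone, without the early pregnant arrays 0 genes were called (6 of 22 at an unadjusted p under 0.05, beside 11.3% of all probe sets), and the higher floor ended the call of LEF1. Without the filter on low signals 0 of the 3 calls remained (4 of 26 genes at an unadjusted p under 0.05, beside 11.6% of all probe sets).

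Among the other secreted inhibitors, SFRP1, which binds Wnt proteins and Frizzled receptors, showed large differences that did not pass. It read 1582.9, 2490.0 and 1855.2 in ovary and 237.7, 212.6 and 1540.5 in uterus, so that the late pregnant uterus was 6.48-fold above the non-pregnant and 7.25-fold above the early pregnant one. Its log2 difference between tissues was 2.18 ± 0.63 (SE, limma adjusted p = 0.120), and its other probe set gave 2.68 (limma adjusted p = 0.129). Without the late pregnant arrays SFRP1 was called higher in ovary.

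DKK2, the other Dickkopf gene with a named probe set, gave no single pattern, because its probe sets differed. The brighter read 831.8, 983.8 and 1138.2 in ovary and 1356.4, 651.1 and 687.9 in uterus (log2 difference 0.21 ± 0.36, SE, limma adjusted p = 0.782). The other read 956.4, 258.9 and 131.7 in ovary and 28.1, 161.2 and 77.7 in uterus (log2 difference 1.64 ± 0.62, SE, limma adjusted p = 0.202). In ovary the brighter probe set was 1.37-fold higher in late pregnancy than at the non-pregnant stage, and the other was 7.26-fold lower. Among the uterine arrays the brighter probe set was highest on the non-pregnant one, and the other was above the floor on the early pregnant one alone.

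**Figure D3:**
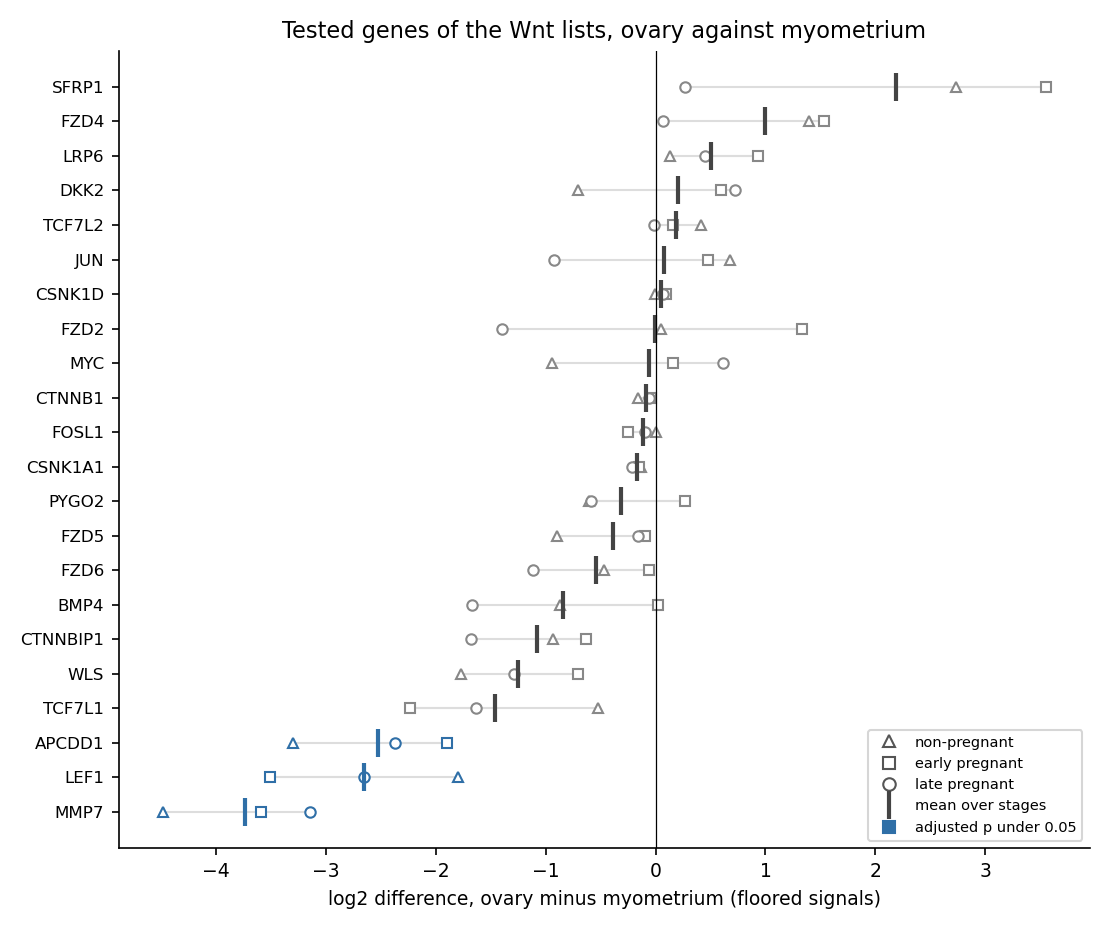
Log2 difference of floored signals, ovary minus tissue labelled myometrium, for the 22 tested genes of the Wnt lists, each at its brightest probe set; open symbols are the stages, 1 array per tissue, vertical bars are their means, and blue marks limma adjusted p under 0.05. MMP7, LEF1 and APCDD1 lie at -3.74 (with ovary raised to the floor), -2.66 and -2.53, and SFRP1 at 2.18 spans the widest range among genes toward ovary.

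LRP6, the DKK1 co-receptor, read 337.9, 396.3 and 302.9 in ovary and 309.5, 207.6 and 222.4 in uterus, a log2 difference of 0.50 ± 0.32 (SE, limma adjusted p = 0.416). These are values of its brightest probe set, which was above the floor on all 6 arrays. At its other probe set the difference was 0.037 (limma adjusted p = 0.973), and non-pregnant uterus was at least 2.54-fold above non-pregnant ovary. The other Dickkopf co-receptors in the list were not analysed here. Among the 5 receptors tested, FZD4 had the largest difference and did not pass, at 0.998 ± 0.38 (SE, limma adjusted p = 0.203). FZD6 differed by -0.55, FZD5 by -0.39 and FZD2 by -0.007 ± 0.53 (SE). The FZD2 value is a mean of opposed differences: 0.046 at the non-pregnant, at least 1.33 at the early and -1.4 at the late pregnant stage. The other probe set of FZD4 differed by 0.40 (limma adjusted p = 0.563). That of FZD6 differed by -0.99 or below, with all its ovary signals under the floor (limma adjusted p = 0.0682).

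CTNNB1, beta-catenin itself, differed by -0.084 ± 0.14 (SE, limma adjusted p = 0.767), with signals of 11657 to 14016 in ovary and 11975 to 15626 in uterus. These are values of the brightest of its probe sets, and the others differed by -0.322 to 0.251 and did not pass. Within uterus its probe sets differed in direction. In order of brightness, their log2 ratios of early pregnant over non-pregnant were -0.384, 0.844, 0.977, 0.151 and -0.105. Those of late pregnant over non-pregnant were -0.344, 0.393, 1.096, 0.932 and -0.085. In the core list 1 of 8 genes passed, namely LEF1. TCF7L1, which represses Wnt targets in the absence of signal, differed by -1.47 (limma adjusted p = 0.114), CTNNBIP1, which keeps beta-catenin from TCF factors, by -1.08, and PYGO2 by -0.31. WLS, which carries Wnt proteins to the cell surface, read 1085.6, 1810.5 and 2003.8 in ovary and 3698.5, 2963.8 and 4899.2 in uterus, and its difference of -1.26 did not pass (limma adjusted p = 0.0569). Of 6 target genes tested, MMP7 and LEF1 passed, while BMP4 differed by -0.84 and FOSL1 by -0.12.

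Around the DKK1 peak, Wnt genes lay in both directions. Of 22 measured genes, each at its brightest probe set, 2 were 2-fold or more higher on the early pregnant than on the non-pregnant uterine array. In the other direction 4 were 2-fold or more lower. The shares of all probe sets were 8.76% and 10.3%. TCF7L1 was 3.12-fold and LEF1 2.22-fold higher. FZD5 was 2.85-fold, APCDD1 2.71-fold, FZD2 at least 2.70-fold and the brighter probe set of DKK2 2.08-fold lower. The other probe set of APCDD1 was 1.81-fold lower, short of 2-fold, and that of DKK2 was at least 1.97-fold higher.

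From early to late pregnancy in uterus, where DKK1 was lower, LEF1 was 2.30-fold lower as well. SFRP1, FZD4 (2.49-fold), FZD5 (2.12-fold) and FZD2 (at least 2.83-fold) were higher, 4 of 22 genes against 1, against 5.87% and 5.62% of all probe sets. Against the non-pregnant array, the late pregnant uterus had SFRP1 and FZD4 (3.21-fold) higher and MYC (3.55-fold) and MMP7 (2.53-fold) lower, where 10.9% of probe sets were higher and 12.6% lower.

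In ovary, DKK3 was high at every stage. Of 20 Wnt genes measured there, each at its brightest probe set, 0 differed by 2-fold or more between the early pregnant and the non-pregnant array. Over all probe sets 4.59% did. Dimmer probe sets did pass 2-fold here, that of DKK2 being 3.69-fold lower and that of LRP6 at least 2.56-fold higher. In late pregnancy 2 of 20 were 2-fold or more lower, where 3.65% of all probe sets were. FZD2 was 2.60-fold and JUN, a target gene and part of the AP-1 factor, 2.62-fold below the non-pregnant ovary. The dimmer probe set of DKK2 was 7.26-fold below it, and that of LRP6 at least 2.19-fold above it. From early to late pregnancy 2 of 20 were lower and 1 was higher. JUN was 3.27-fold and FZD2 2.35-fold lower and FZD5 2.03-fold higher, where 2.71% of probe sets were lower and 1.5% higher.

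The genes whose pattern was nearest to DKK1 or DKK3 were found by the root mean square difference between log2 profiles over the 6 arrays, each centred on its own mean, among 5672 other genes. The median over all genes was 2.12 from DKK1 and 1.66 from DKK3. DKK1 and DKK3 lay 3.45 apart, DKK3 being 5634th nearest to DKK1 and DKK1 5599th nearest to DKK3.

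Nearest to DKK1 was SERPINB7, a serine protease inhibitor of the serpin family, at 0.38, with signals of 143.7, 3598.4 and 186.1 on the uterine arrays in order of stage and under the floor in ovary. SULT1E1, which sulphates and so inactivates oestrogens, followed at 0.60 with 57.4, 3191.5 and 881.0. The chemokine CXCL14 at 0.70 read 848.1, 18246 and 1633.8, with 435.8 to 1489.3 in ovary. The kinase STK26 (0.76), the metalloprotease ADAM28 (0.77), the protein kinase A inhibitor PKIB (0.79), the sialic acid lyase NPL (0.80) and the serine protease PRSS16 (0.81) came next. All 8 were highest on the early pregnant uterine array, as the choice by pattern fixes.

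Nearest to DKK3 was ACSL6, an acyl-CoA synthetase, at 0.26, with 677.8, 888.0 and 1004.4 in ovary and signals under the floor in uterus. GATA4, a transcription factor of gonadal somatic cells, lay at 0.35 and read 532.7, 588.5 and 535.1 in ovary, also with uterus under the floor. BMP1, the protease that trims procollagen, lay at 0.37 with 1185.0, 1262.5 and 1881.9 in ovary and 162.4 to 251.6 in uterus. PIM2 (0.38), C15H2orf88 (0.38), DCBLD2 (0.39), the small GTPase RHOF (0.40) and HAGH, a glyoxalase (0.40), followed. The lists depended on the floor: between 3 and 4 of the 8 genes nearest DKK1, and between 1 and 3 of those nearest DKK3, were kept with another floor or none.

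**Figure D4:**
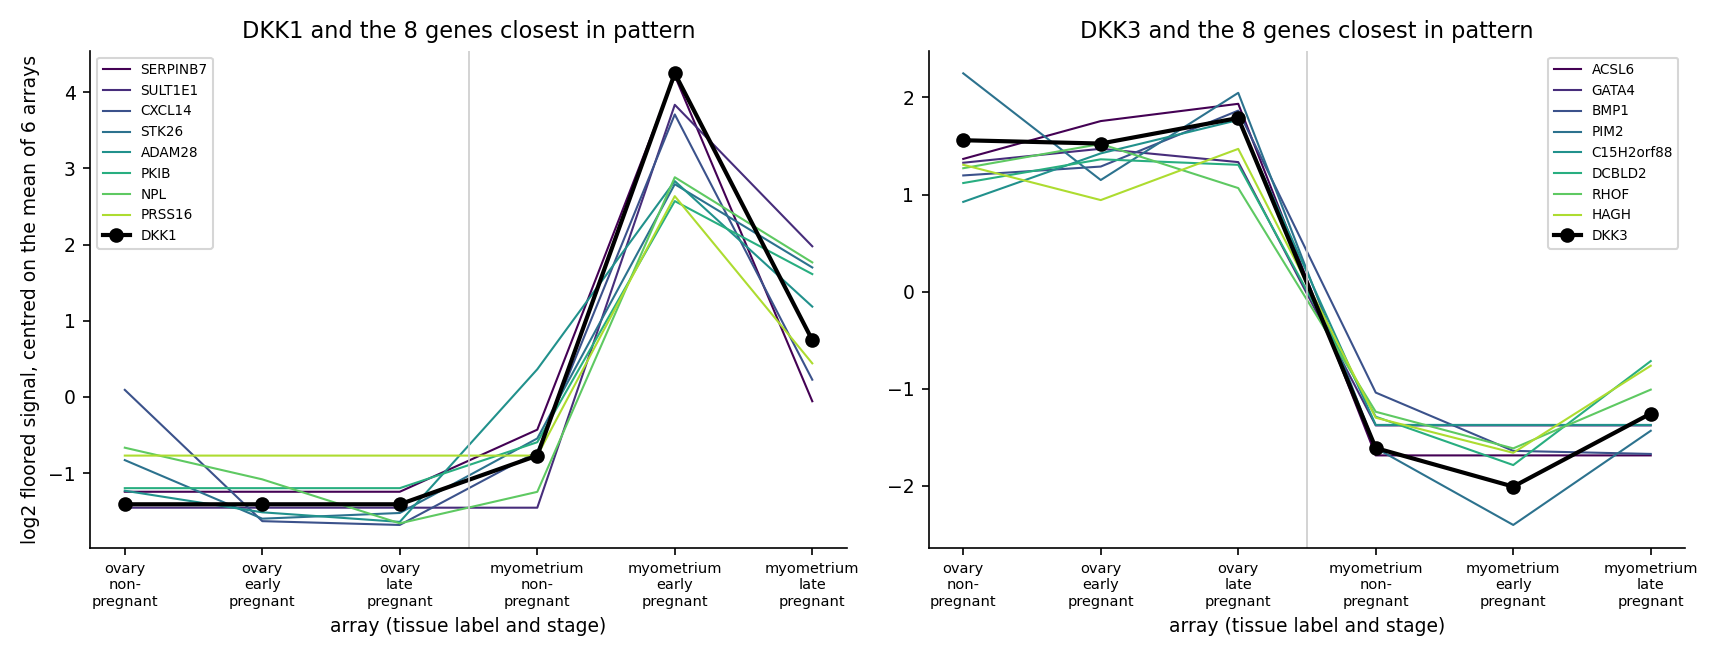
Log2 floored signal on the 6 arrays, centred on each gene's mean, for DKK1 (left) and DKK3 (right) in black and the 8 genes with the smallest root mean square difference in colour; the grey line parts ovary from tissue labelled myometrium. The genes near DKK1 all peak on the early pregnant myometrium array, and those near DKK3 are high on all ovary arrays and low on all myometrium arrays.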

How the data were processed

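The deposited values are linear intensity values, 1 per probe set and array, made by the authors with MAS5 (per the submitters' processing notes), with settings not given in the sources used here. The mean after trimming 2% at each end was 500.1 on all 6 arrays, so the arrays had been scaled alike, which hides a change in total RNA. After 124 control probe sets were left out, 23999 remained. Signals were raised to the floor of 81.7 and log2 was taken. Of the probe sets, 10069 had 1 gene symbol in the platform annotation, 198 had several and 13732 had none. Gene identifiers of 9961 were matched to current records, and 0 symbols changed. Genes with several probe sets were represented by the brightest.

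Tissues were compared by limma 3.58.1 in R 4.3.3 (tissue plus stage, intensity trend, probe sets exceeding the floor on 2 or more arrays, Benjamini-Hochberg over 15882). The fit was run on simulated data with the same spread for every probe set and no values held at the floor. That check therefore does not cover calls with a tissue at the floor. The named genes were all DKK1 and DKK3 probe sets, the 8 nearest in pattern to each, Wnt genes past the threshold or with up to 4 of the largest tissue differences per list, and up to 6 Wnt genes at 2-fold or more per stage comparison. Further members of small lists were named after their values were seen. The members and lists were chosen with earlier results of these data known. Alternatives were other floors (33.7 and 246.2), a pseudocount of 16, quantile normalization, median centring, no filter, no trend, no stage block, averaged probe sets and leaving out a stage. The number of arrays limits the precision. No sequences and no gene positions were used here. Python 3.11.15 was used.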

Additional observations from a re-analysis of the deposited data

Results flagged for a closer look

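FZD2, a Frizzled receptor, differed in opposite directions between early and late pregnancy in the tissues. Its ovary signal was 205.8 at the early and 87.7 at the late stage, a log2 ratio of -1.23. In tissue labelled myometrium it was 69.1 and 231.4, a log2 ratio of at least 1.5. The ratios differed by -2.73 (ovary minus myometrium) with the early pregnant myometrium array at the floor. Each side is 1 array, so the difference was not tested. Neither DKK1 nor DKK3 moved by 2-fold in opposite directions in the tissues.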

How the results depend on the processing

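Of 136 recomputed values of DKK1 and DKK3, 118 moved by less than 0.317 on the log2 scale, the median residual SD of the fit, and 18 moved further, all of DKK1. None changed sign beyond 2-fold, and all 83 of DKK3 were among the 118. Averaging probe sets could not change either gene, since each has 1. Nor could another floor change DKK3, whose lowest signal of 575.8 lies above the highest floor of 246.2. With the higher floor, DKK1 on the early pregnant over the non-pregnant uterine array was at least 4.07 and early pregnant ovary over uterus -4.07 or below. The non-pregnant uterine signal then lay under the floor too, so that the late pregnant uterus was at least 0.56 above it and the non-pregnant pair of tissues had no ratio. The early pregnant tissue difference was -6.93 or below with the lower floor, and -6.84 with the pseudocount, which rests on an ovary signal under every floor. The mean DKK1 difference between tissues was -4.09 with the lower floor, -1.54 with the higher floor and -4.01 with the pseudocount, and -3.91 to -1.40 when a stage was left out, the last without the early pregnant arrays. That of DKK3 was 3.11 to 3.35 when a stage was left out.

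Of all probe sets, limma called 298 higher in ovary and 179 in uterus with the higher floor, 0 and 0 without the filter (2782 at an unadjusted p under 0.05), and 715 in ovary without the stage block. Leaving out a stage gave 0 to 138 in ovary and 0 to 260 in uterus, both 0 without the early pregnant arrays (1790 at an unadjusted p under 0.05), from fits with 1 residual degree of freedom. Of the Wnt genes, 0 were called higher in uterus without the filter (4 of 26 at an unadjusted p under 0.05), and leaving out a stage gave 0 to 1 in uterus and 0 to 1 in ovary. The cause was not tested. Counts of Wnt genes at 2-fold became 1 higher in late pregnant over non-pregnant ovary with centring, 1 lower there and 1 lower from early to late pregnancy with the higher floor. With the lower floor, 4 were higher in early pregnant over non-pregnant uterus and 2 lower from early to late pregnancy. Of the 8 genes nearest DKK1, 4 were shared with the lower floor, 4 with the higher and 3 with the pseudocount, and of those nearest DKK3 1, 2 and 3. The limma comparison of tissues was paired by stage, and its unpaired form is the one without the stage block. Replicate numbers pair nothing further, since each group has 1 array.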
